A study of Mus musculus with 30 samples.

Results

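Prox1, Lyve1, Pdpn, Reln and Mmrn1, a panel of genes used to recognise lymphatic endothelium, were followed through 5 sorted stromal populations of the newborn mouse thymus. They were taken by gene name from a table of 18847 genes, and all 5 were found. RNA sequencing of 30 libraries gave the table, in FPKM, that is, fragments counted per kilobase of a gene, scaled for the size of its library. B6.SJL mice of mixed sex received aflibercept (called Trap here) or the control protein hFc by injection on postnatal day 1, and their thymi were collected at the age of 3 days. Aflibercept, a soluble fusion of parts of VEGF receptors, binds VEGF-A. All groups were of the same strain and age, and each population had 2 control and 4 Trap libraries.

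All populations were sorted from cells lacking CD3, CD4, CD8, CD45 and TER119. Endothelium lacked EpCAM and carried CD31. The 2 mesenchymal populations lacked EpCAM and CD31 and carried CD140a or CD146. Cortical thymic epithelial cells (cTEC) carried EpCAM and Ly51, and medullary thymic epithelial cells (mTEC) carried EpCAM with little or no Ly51. The sort used no lymphatic marker, so endothelium here means blood and lymphatic endothelium together. In such bulk samples, fewer cells of a type and less RNA per cell cannot be told apart. The labels number the libraries but do not say how many animals each holds, so a p-value here reflects the spread among these libraries and may be partly technical.

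Lymphatic endothelium arises mainly from veins, where SOX18 and COUP-TFII (gene Nr2f2) switch on PROX1, the transcription factor that sets and keeps lymphatic identity. VEGF-C, cut to its active form with the help of CCBE1 and ADAMTS3, then drives these cells to sprout through VEGFR3 (gene Flt4) and its co-receptor neuropilin 2. LYVE1 is a hyaluronan receptor of lymphatic capillaries and of some macrophages. Podoplanin (gene Pdpn) is a membrane glycoprotein that binds CLEC-2 on platelets and also marks fibroblasts and thymic epithelium. Reelin (gene Reln) is a large secreted glycoprotein best known from the developing brain, and multimerin 1 (gene Mmrn1) is a secreted glycoprotein of platelets and endothelium.

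The members lie apart in the genome (build GRCm38, GENCODE M21). Prox1 (ENSMUSG00000010175.13) spans chr1:190118035-190170714 on the minus strand. Lyve1 (ENSMUSG00000030787.4) spans chr7:110850607-110863239 on the minus strand. Pdpn (ENSMUSG00000028583.14) spans chr4:143267431-143299564 on the minus strand. Reln (ENSMUSG00000042453.14) spans chr5:21884454-22344702 on the minus strand and is the longest, at 460.2 kb with 23738 exonic bases. Mmrn1 (ENSMUSG00000054641.10) spans chr6:60924976-60989378 on the plus strand.

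The 250 bases before the RefSeq start (GRCm38.p6) of the 4 members in the promoter table are shown because these 4 had different patterns over the populations. Lyve1 has no entry in that table. Both strands were searched for the SOX motif AACAAT. The nuclear receptor half-site AGGTCA was searched for next. The GC box was searched for as GGGCGG. For GATA factors the letters were AGATAA. The CRE half-site was taken as TGACG. Capitals mark the matches, which do not overlap.
Prox1, chr1:190170828-190171077, minus strand: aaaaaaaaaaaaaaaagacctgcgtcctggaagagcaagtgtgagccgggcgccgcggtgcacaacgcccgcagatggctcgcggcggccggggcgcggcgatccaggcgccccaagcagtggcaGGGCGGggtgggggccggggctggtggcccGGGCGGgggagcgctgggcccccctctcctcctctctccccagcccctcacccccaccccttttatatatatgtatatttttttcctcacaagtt
Pdpn, chr4:143299565-143299814, minus strand: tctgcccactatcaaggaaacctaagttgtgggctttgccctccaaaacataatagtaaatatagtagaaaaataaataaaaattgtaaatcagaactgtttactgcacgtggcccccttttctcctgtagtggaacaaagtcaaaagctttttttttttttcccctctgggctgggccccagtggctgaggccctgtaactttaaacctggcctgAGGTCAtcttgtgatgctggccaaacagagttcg
Reln, chr5:22344706-22344955, minus strand: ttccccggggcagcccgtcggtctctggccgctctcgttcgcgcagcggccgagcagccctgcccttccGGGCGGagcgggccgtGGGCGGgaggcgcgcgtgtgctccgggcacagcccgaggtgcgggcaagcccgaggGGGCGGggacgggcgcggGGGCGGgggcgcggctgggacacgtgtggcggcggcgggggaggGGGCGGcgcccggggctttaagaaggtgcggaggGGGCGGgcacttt
Mmrn1, chr6:60944067-60944316, plus strand: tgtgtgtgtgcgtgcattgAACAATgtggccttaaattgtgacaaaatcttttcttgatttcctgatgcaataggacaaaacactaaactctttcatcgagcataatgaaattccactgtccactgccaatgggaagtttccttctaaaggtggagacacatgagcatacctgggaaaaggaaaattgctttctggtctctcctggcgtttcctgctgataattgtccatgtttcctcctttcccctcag

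The windows differ in base composition. Guanine and cytosine made up 64.8% of the Prox1 window and 80.0% of the Reln window, against 43.2% for Pdpn and 42.4% for Mmrn1. The GC box occurred 2 times before Prox1 and 6 times before Reln, and was found in 32.7% of 32851 RefSeq promoters. The Pdpn window held 1 nuclear receptor half-site (14.0% of promoters) and the Mmrn1 window 1 SOX motif (9.42%). No GATA motif (9.99% of promoters) and no CRE half-site (17.8%) was found in these 4 windows. The RefSeq start of Mmrn1 lies inside the GENCODE span of the gene, and none of the 250 bases before it is exonic. By GENCODE that window is therefore intronic, and it may not be a promoter. The GENCODE span of Prox1 ends at 190170714, short of its window, and 0 of its GENCODE transcripts hold the bases just after the RefSeq start. All motif matches are letters in a window and were not tied to the expression values.

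The 30 libraries had FPKM sums of 184608 to 241993, with 10298 to 13661 genes at 1 FPKM or more. Endothelial libraries carried their defining markers evenly, with the adhesion molecule Pecam1 (CD31) at 296 to 339 FPKM and the junction protein Cdh5 at 530 to 645. One endothelial library, Trap 2, stood apart by epithelial transcripts. Its 6 cortical epithelial markers summed to 53.3 FPKM, while the remaining 5 endothelial libraries had 2.0 to 9.62. Its 4 general epithelial markers summed to 41.8 FPKM, against 1.86 to 13.2.

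**Figure D1:**
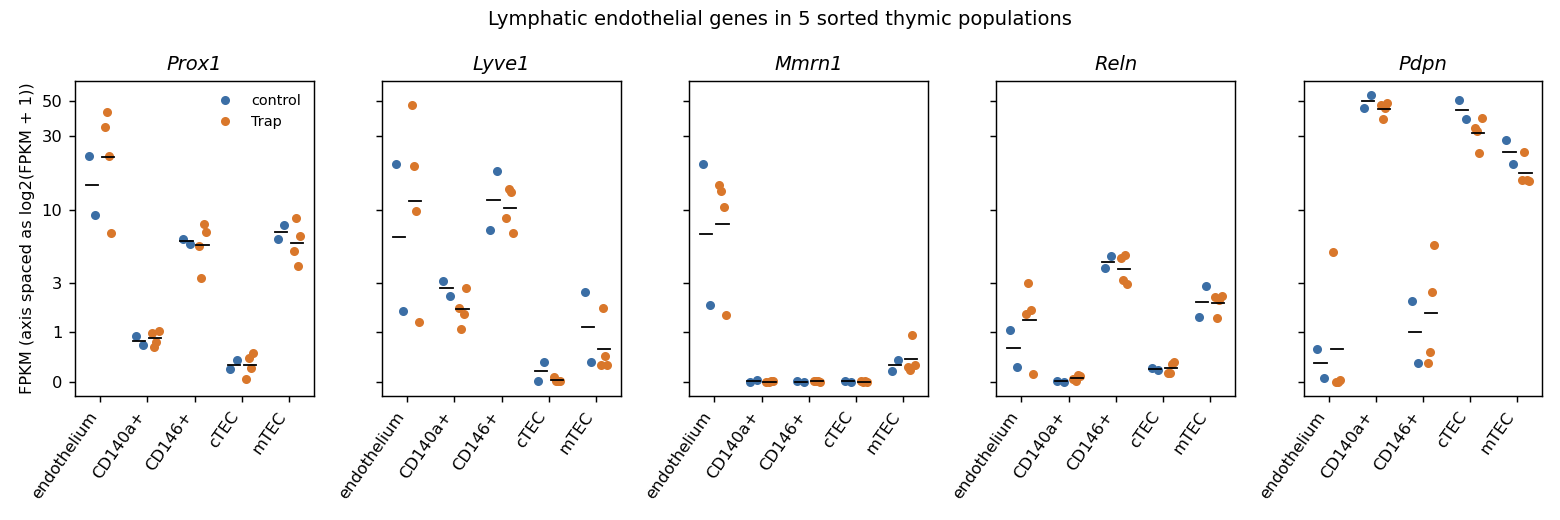
FPKM of the 5 lymphatic genes in all 30 libraries on a log2(FPKM + 1) axis, by population and treatment. Each point is 1 library and each bar the group's mean on that axis. Mmrn1 was above 1 FPKM in the 6 endothelial libraries only, whereas Pdpn was highest in CD140a+ mesenchyme and thymic epithelium.

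Prox1, Lyve1 and Mmrn1 were higher in endothelium than in the mean of the other 4 populations, Pdpn was lower, and Reln did not pass the test. Mmrn1 was the member most restricted to endothelium by its range, while Pdpn went against the panel's name. Prox1 also reached several FPKM in mTEC and CD146+ mesenchyme, and Lyve1 in CD146+ mesenchyme was as high as in several endothelial libraries. Differences below are on the log2(FPKM + 1) scale, which understates the change of low genes. They were tested with limma across 16425 genes, with Benjamini-Hochberg adjustment and a threshold of 0.05. The fit took 1 variance per gene from all groups. For a gene that varied more in endothelium than elsewhere, the SE and p therefore understate the endothelial spread. When each population was weighted by its spread, endothelium had the lowest weight (0.573, against 0.794 to 1.656).

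Prox1, the fate factor, was 22.7 and 9.35 FPKM in endothelial controls 1 and 2. The endothelial Trap libraries 1 to 4 had 34.1, 42.5, 22.6 and 7.02 FPKM. The lowest Trap library lay below both controls, and 5 of the 6 endothelial libraries lay above all 24 others. Endothelium exceeded the mean of the other populations by 2.52 ± 0.245 (SE) on the log2 scale (limma adjusted p = 1.91e-09). Across populations the mean FPKM was 23.0 ± 13.7 (SD, n = 6) in endothelium, 6.53 ± 1.74 in mTEC and 6.07 ± 1.63 in CD146+ mesenchyme. It was 0.827 ± 0.164 in CD140a+ mesenchyme and 0.283 ± 0.167 in cTEC. Endothelium exceeded mTEC (exact permutation test, two-sided, 6 libraries against 6, adjusted p over 20 pairs of neighbours = 0.0157). The levels in mTEC and CD146+ mesenchyme did not differ beyond their spread (exact permutation adjusted p = 0.764). In both of these populations Pecam1 averaged 1.63 and 2.50 FPKM, so CD31 transcripts were low there while Prox1 was present in every library, at 4.07 to 8.83 and 3.25 to 8.04 FPKM.

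Lyve1, the hyaluronan receptor, was 20.1 and 1.71 FPKM in endothelial controls 1 and 2. The endothelial Trap libraries had 46.8, 19.4, 9.96 and 1.32 FPKM. Control 2 and Trap 4 were both below 2 FPKM, so the highest library was 35.5 times the lowest. The difference from the mean of the other populations was 1.71 ± 0.42 (SE; limma adjusted p = 0.00124), and without endothelial control 1 it was 0.97 with an adjusted p of 0.0928, so that library decided the call. In CD146+ mesenchyme Lyve1 was 7.41 and 18.2 FPKM in controls and 8.88, 13.9, 13.3 and 7.06 in Trap libraries. That range lies within the endothelial one, and the test of neighbours did not separate them (exact permutation adjusted p = 0.939). Endothelium had the higher mean FPKM (16.6 against 11.5), but its difference from CD146+ mesenchyme on the log2 scale tested was -0.159. The defining endothelial genes were low in CD146+ mesenchyme (Pecam1 2.50 and Cdh5 1.16 FPKM on average). Of the 10 macrophage markers there, 3 were at 0 in all 6 libraries (Adgre1, C1qa and C1qc), while Cd68 averaged 28.5 and Csf1r 2.40 FPKM. The macrophage list summed to 32.9 to 47.7 FPKM in the CD146+ controls and 19.2 to 40.0 in its Trap libraries, near the endothelial sums of 20.5 to 47.5. The part of these transcripts in Lyve1 was not tested. CD146+ mesenchyme exceeded CD140a+ mesenchyme, which had 2.12 ± 0.746 FPKM (exact permutation adjusted p = 0.00541).

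Mmrn1, the secreted multimerin, was 20.1 and 1.94 FPKM in endothelial controls and 14.8, 13.5, 10.6 and 1.54 in Trap libraries. All 6 endothelial libraries lay above all 24 others, whose highest value was 0.93 FPKM. That holds for 587 of the 16425 genes tested (3.57%). The difference from the mean of the other populations was 2.97 ± 0.299 (SE; limma adjusted p = 3.75e-09). After endothelium came mTEC, with 0.17 and 0.36 FPKM in controls and 0.24, 0.18, 0.93 and 0.27 in Trap libraries. CD140a+ and CD146+ mesenchyme and cTEC had at most 0.03 FPKM in any library, and mTEC exceeded its neighbour in the order (exact permutation adjusted p = 0.00541).

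Pdpn, the podoplanin gene, was 0.58 and 0.06 FPKM in endothelial controls and 5.12, 0, 0 and 0.03 in Trap libraries. Trap 1 alone exceeded 1 FPKM, and the median of the 6 was 0.045 FPKM. In CD140a+ mesenchyme Pdpn was 45.3 and 54.0 FPKM in controls and 47.2, 38.4, 45.1 and 48.7 in Trap libraries. The cTEC libraries had 50.8 and 38.2 FPKM in controls and 33.8, 32.2, 23.6 and 39.1 under Trap. Every library of CD140a+ mesenchyme, cTEC and mTEC was therefore above every endothelial one. Endothelium was lower than the mean of the other populations (difference -3.60 ± 0.318 SE; limma adjusted p = 3.09e-10). The mTEC libraries had 28.6 and 19.9 FPKM in controls and 15.9, 23.8, 15.8 and 15.7 under Trap. In the order of levels, cTEC (36.3 ± 9.02 FPKM) exceeded mTEC (exact permutation adjusted p = 0.0144). CD140a+ mesenchyme (46.4 ± 5.12) and cTEC did not differ beyond their spread (adjusted p = 0.0533). CD146+ mesenchyme (1.92 ± 2.10) and endothelium also did not (exact permutation adjusted p = 0.335). Pdpn levels in this sort therefore go against the label of the panel.

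Reln, the secreted reelin gene, was 1.06 and 0.24 FPKM in endothelial controls and 1.59, 2.99, 1.72 and 0.12 in Trap libraries. Its highest levels were in CD146+ mesenchyme, at 3.89 and 4.83 FPKM in controls and 4.65, 3.16, 4.93 and 2.91 in Trap libraries. Endothelium differed from the mean of the other populations by -0.11 ± 0.18 (SE; limma adjusted p = 0.635), and the sign turned with a pseudocount of 0.1 and with TPM or quantile scaling. CD146+ mesenchyme (4.06 ± 0.879 FPKM) exceeded mTEC (2.08 ± 0.527; exact permutation adjusted p = 0.00541). Endothelium (1.29 ± 1.07) was not separated from mTEC (adjusted p = 0.159) or from cTEC (0.215 ± 0.0812; adjusted p = 0.0618) by the same exact permutation test.

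Of the 5 members, 3 were higher in endothelium and 1 was lower. Over all genes, 52.1% were called in this comparison and 17.7% were called higher, so the members' counts are to be read against many calls. Most calls were lower in endothelium (2900 higher and 5661 lower). The median difference over all genes was -0.187, and quantile normalization shifted it to -0.052. With it, 3643 of 8011 calls were higher. The signs of Prox1, Lyve1, Mmrn1 and Pdpn were kept under each scaling tried.

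**Figure D2:**
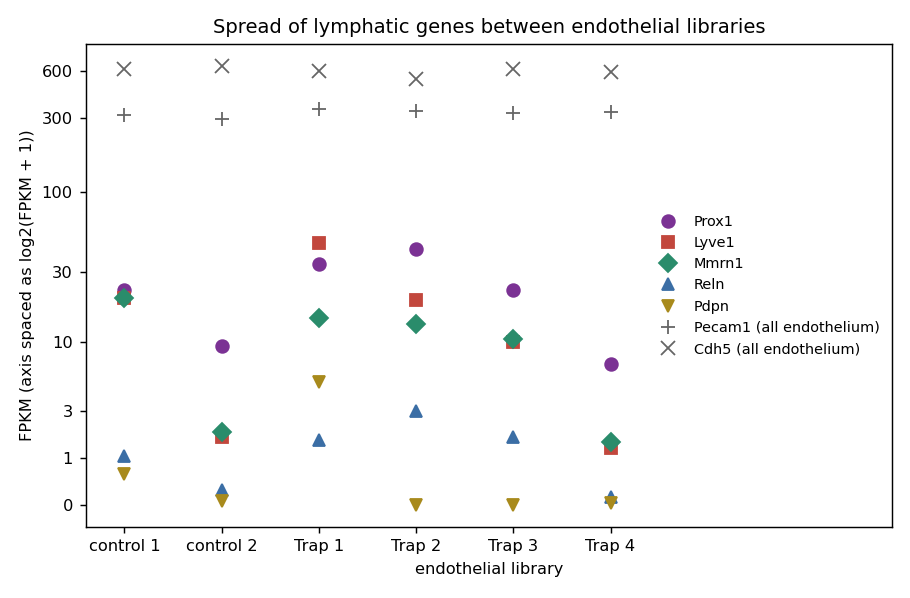
FPKM of the 5 lymphatic genes and of Pecam1 and Cdh5 in each endothelial library, 2 control and 4 Trap, on a log2(FPKM + 1) axis. Control 2 and Trap 4 are the 2 lowest libraries for Prox1, Lyve1, Reln and Mmrn1, while Pecam1 stays between 296 and 339 FPKM.

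The members varied more between endothelial libraries than Pecam1 and Cdh5 did. The coefficient of variation over the 6 libraries was 0.596 for Prox1, 0.711 for Mmrn1, 0.83 for Reln, 1.02 for Lyve1 and 2.12 for Pdpn. Among the 11526 genes with an endothelial mean of at least 1 FPKM, the first 4 values stand at the 75.1, 82.4, 87.7 and 92.9 percentiles. Pdpn, whose own mean of 0.965 FPKM is just below that limit, would stand at the 99.5 percentile. Pecam1 had a coefficient of 0.0464 and Cdh5 one of 0.0663, at the 0.165 and 0.72 percentiles. The other blood endothelial markers were less even, from 0.0967 (Flt1) to 0.274 (Plvap). All these markers averaged 66.0 FPKM or more in endothelium, above the mean of each member. The members were not compared with genes of like level. The highest library was 6.05 times the lowest for Prox1 and 13.1 times for Mmrn1, but 1.14 times for Pecam1.

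The low libraries were the same for 4 of the members. Trap 4 was the lowest and control 2 the second lowest for Prox1, Lyve1, Reln and Mmrn1. Control 1 was above control 2 for all 5 members. This pair of libraries was singled out after the values were seen. Among all 11526 genes, 719 (6.24%) had these 2 libraries as their 2 lowest, and the most common pair was Trap 2 with Trap 4 (11.7%). Of the other products of lymphatic endothelium in a list of 12, 10 had a mean of 1 FPKM and 6 of them had the same 2 lowest libraries. These were Itga9, Stab2, Pkhd1l1, Fgl2, Sema3d and Thy1. None of 9 transcription factors and none of 3 VEGF-C pathway genes did, and 1 of 8 blood endothelial markers did (12.5%). By mean FPKM, Stab2 was highest in endothelium, but the other products named here were higher elsewhere. Thy1 (47.1) and Sema3d (21.4) led in CD140a+ mesenchyme, Fgl2 (43.1) and Itga9 (15.0) in CD146+ mesenchyme and Pkhd1l1 (29.4) in cTEC.

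Stab2, a scavenger receptor for hyaluronan, was 2.79 and 1.78 FPKM in controls and 14.5, 10.8, 5.03 and 0.94 in Trap libraries. Itga9, the integrin subunit of lymphatic valves, was 19.0 and 10.7 FPKM in controls and 14.0, 18.6, 11.6 and 9.56 in Trap libraries. Both show the same low libraries with a smaller span for Itga9. Flt4, the VEGF-C receptor, did not: it was 22.8 and 20.6 FPKM in controls and 16.4, 29.2, 15.8 and 14.8 in Trap libraries.

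Sums of other cells' markers were compared with the 2 low libraries. The 8 blood endothelial markers summed to 1558 and 1606 FPKM in control 2 and control 1 and to between 1442 and 1467 in Trap libraries, with Trap 4 at 1443. The 10 macrophage markers summed to 42.2 in control 2 and 20.5 in Trap 4, and to 24.8 to 47.5 in the other 4. These sums were mostly Cd68, at 41.2 in control 2 and 19.6 in Trap 4, with Csf1r at 0.73 and 0.94. C1qa, C1qb, C1qc and Timd4 were at 0 in all 6. The 7 fibroblast markers summed to 6.49 in control 2 and 15.8 in Trap 4, within or below the 11.7 to 17.2 of the others. The 5 mesothelial markers summed to 2.91 in Trap 1, the library with Pdpn at 5.12 FPKM, and to 2.18 in control 2, where Pdpn was 0.06. The sum in Trap 1 was mostly Upk1b (2.55 FPKM), with Msln and Upk3b at 0. The part of these markers in the members' values was not tested.

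**Figure D3:**
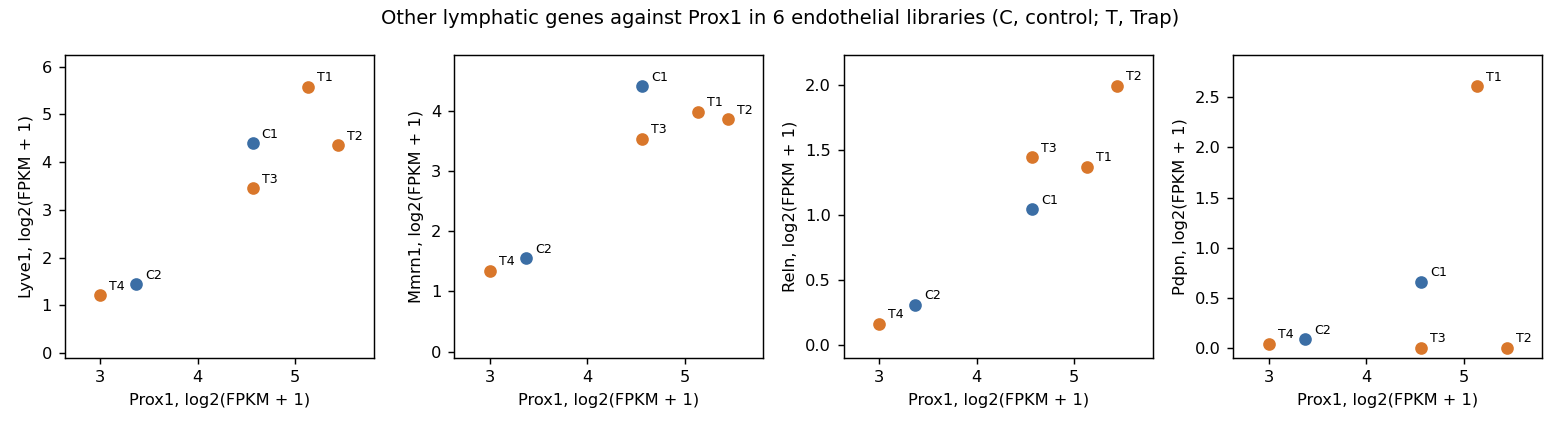
Lyve1, Mmrn1, Reln and Pdpn against Prox1 in the 6 endothelial libraries, all as log2(FPKM + 1), with control (C) and Trap (T) libraries numbered. Control 2 and Trap 4 sit at the lower left in the panels of Lyve1, Reln and Mmrn1, and Pdpn is under 1 FPKM in all libraries but Trap 1.

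Prox1, Lyve1, Reln and Mmrn1 shared their 2 lowest endothelial libraries, but no pair of members passed the test of correlation. Over their 6 pairs, Pearson r was 0.812 to 0.964 and Spearman rho 0.486 to 0.943. The exact permutation p of r for Prox1 with Reln was 0.0111 and its adjusted value over 10 pairs was 0.111, the smallest of all. For Lyve1 with Mmrn1, r was 0.940 (exact permutation p = 0.0361, adjusted 0.120) and rho 0.943 (p = 0.0167, adjusted 0.167). Without the 2 libraries farthest from the median of the first gene, r over these 6 pairs fell to between -0.552 and 0.802. That step narrows the range of the first gene and leaves 4 libraries, so the fall cannot show what the relations rest on. Leaving out 1 library at a time kept r over these 6 pairs between 0.697 and 0.989. Pairs with Pdpn had r of 0.198 to 0.672. No correlation was computed within a treatment, where there are at most 4 libraries.

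The test of Trap against control in endothelium called none of the 5 members. Over all genes, 1.74% were called (286 of 16425), and no member had an unadjusted limma p under 0.05. The endothelial mean of Prox1 was 16.0 ± 9.42 FPKM (SD, n = 2) in controls and 26.6 ± 15.3 (n = 4) under Trap. Of its 4 Trap libraries, 2 lay above both controls, 1 below both and 1 between. The difference was 0.57 ± 0.44 (SE; limma adjusted p = 0.623).

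For Lyve1 the means were 10.9 ± 13.0 and 19.4 ± 19.7 FPKM and the difference 0.73 ± 0.75 (SE; limma adjusted p = 0.758). Mmrn1 had means of 11.0 ± 12.9 and 10.1 ± 5.97 FPKM and a difference of 0.20 ± 0.535 (limma adjusted p = 0.975), so its mean was lower under Trap in FPKM and higher on the log2 scale. Reln had the highest share of Trap libraries above both controls, 3 of 4, with means of 0.65 ± 0.58 and 1.60 ± 1.17 FPKM. Its difference was 0.57 ± 0.32 (limma adjusted p = 0.438). Pdpn had 0.32 ± 0.368 and 1.29 ± 2.56 FPKM and a difference of 0.29 ± 0.57 (limma adjusted p = 0.930), with 3 of 4 Trap libraries below both controls. The standard errors are as large as most of these differences, so the data cannot show that Trap left the genes unaltered.

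The sign depended on single libraries. Without control 2, the differences of Prox1, Lyve1 and Mmrn1 turned to -0.03, -0.75 and -1.22, and without control 1 they rose to 1.16, 2.21 and 1.62. The sign of Mmrn1 also turned without Trap 1 (-0.07) or Trap 2 (-0.03). Pdpn turned to -0.36 without Trap 1. No fit that left out a library called a member in this comparison. Sums of other markers in endothelium did not overlap between treatments for only 2 of the marker lists. With so few libraries per treatment, some lists can separate by chance alone. The share expected by chance was not computed, so a link of this separation to Trap was not tested. The 7 fibroblast markers summed to 6.49 and 11.7 FPKM in controls and 14.0 to 17.2 under Trap. Of these 7 only Pi16 was called (1.22 ± 0.315 SE; limma adjusted p = 0.0439), and that call was lost with 1 weight per population and in the fit of the 6 endothelial libraries alone. Of 6 leukocyte markers, Lck alone was called, lower under Trap (-1.44 ± 0.367 SE; limma adjusted p = 0.0403), and this call was also lost in the 6 libraries alone. The 8 blood endothelial markers summed to less under Trap, in the ranges given above, and 0 of 8 were called. The part of these markers in the members' values was not tested.

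**Figure D4:**
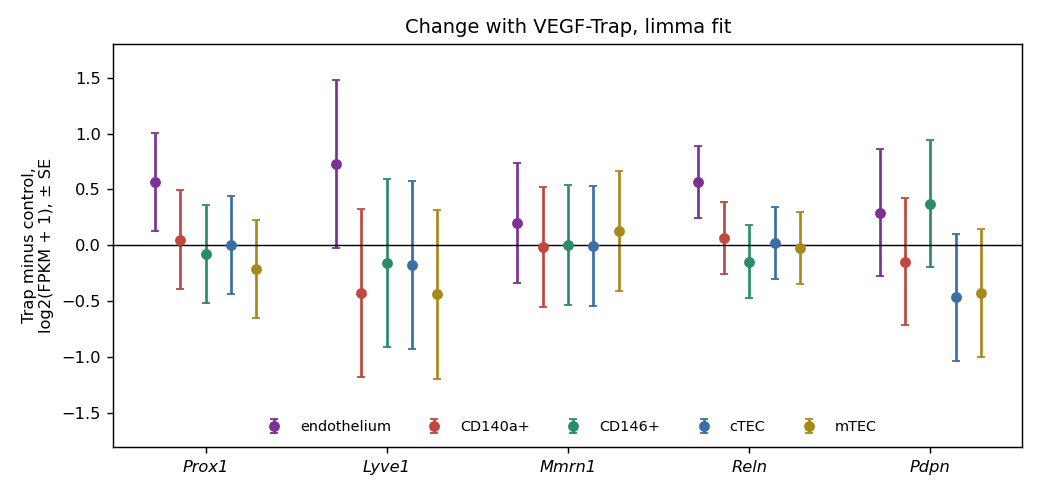
Trap minus control difference of the 5 lymphatic genes in each population, on the log2(FPKM + 1) scale with standard errors from limma. The endothelial differences run from 0.20 to 0.73, and no difference in any population passed the adjusted threshold of 0.05.

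In the other 4 populations none of the 20 tests of a member passed. The differences ran from -0.46 to 0.37 and the smallest limma adjusted p was 0.977. Over all genes the calls were 0% in CD140a+ mesenchyme, 0.0183% in CD146+ mesenchyme, 0.00609% in cTEC and 0.347% in mTEC. Pdpn had 3 of 4 Trap libraries below both controls in cTEC, with means of 44.5 ± 8.90 and 32.2 ± 6.45 FPKM (SD), and likewise in mTEC, with 24.2 ± 6.10 and 17.8 ± 4.02 FPKM. In CD140a+ mesenchyme, 3 of 4 Trap libraries lay below both controls for Lyve1 and 3 of 4 above both for Reln. The share of all genes with such a pattern was not computed. The test of the endothelial change against the mean change elsewhere called no member either, against 0.28% of genes. Its largest value was for Lyve1, 1.03 ± 0.84 (limma adjusted p = 0.727), and for Reln it was 0.59 ± 0.362 (adjusted p = 0.595).

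**Figure D5:**
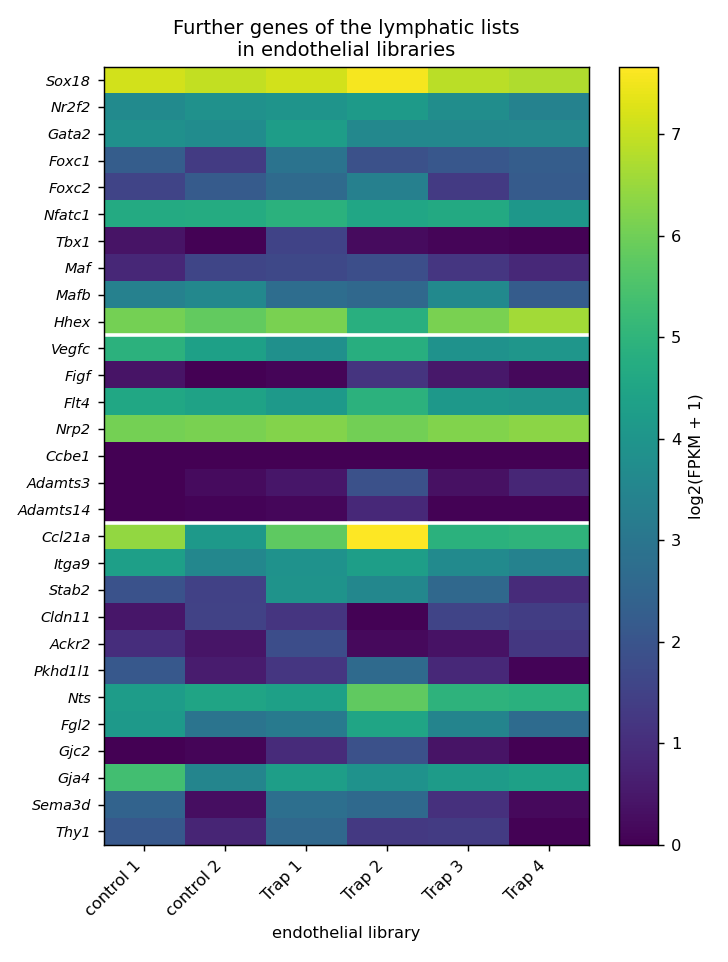
Heat map of the transcription factors (top block), VEGF-C pathway genes (middle) and other lymphatic products (bottom) in the 6 endothelial libraries, with colour as log2(FPKM + 1). Nrp2 is even between libraries, while Ccl21a runs from 16.4 to 202 FPKM.

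Regulators of lymphatic fate were mixed between populations. Of 9 transcription factors tested out of 10, 5 were higher in endothelium, 2 lower and 2 not called, with a median difference of 0.47 against -0.187 for all genes. Over all genes 17.7% were higher and 34.5% lower in this comparison, the background for this list and the next 3. Sox18, which acts upstream of PROX1, averaged 137 ± 29.3 FPKM in endothelium and exceeded the other populations by 6.81 ± 0.143 (SE; limma adjusted p = 3.42e-23). Hhex, a homeobox factor of early endothelium, had 64.0 ± 22.5 FPKM, and Nfatc1, a valve factor, 23.6 ± 4.39. Nr2f2, the venous factor, had 13.2 ± 2.60 FPKM in endothelium and 48.2 in CD146+ mesenchyme. Under Trap none of the 9 was called, with a median of 0.03. With 1.74% of all genes called in endothelium under Trap, a count of 0 says little about this list or the next 3.

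In the VEGF-C pathway, 3 of 7 genes were higher in endothelium and 4 lower, against 17.7% and 34.5% of all genes, and the median was -1.08. Nrp2, the co-receptor, had 71.0 ± 5.61 FPKM and Flt4, the receptor, 19.9 ± 5.46, which were 2.94 ± 0.138 and 3.78 ± 0.16 above the other populations. Vegfc, the ligand, also had 19.7 ± 6.81 FPKM in endothelium. The lower 4 were Vegfd (table symbol Figf), Ccbe1, Adamts3 and Adamts14. Adamts3, a protease that matures VEGF-C, was 0.725 FPKM. None of the 7 was called under Trap, with a median of 0.12.

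Of 12 other lymphatic endothelial products, 5 were higher in endothelium, 1 lower and 6 not called, and the median was 0.58. The number called is near the 52.1% called over all genes, but the 5 higher and 1 lower of 12 stand against 17.7% and 34.5%. Ccl21a, the chemokine that draws dendritic cells into lymphatics, was 85.5 and 16.4 FPKM in controls and 53.2, 202, 29.0 and 30.5 in Trap libraries. It was also 475 FPKM in cTEC and 948 in mTEC on average, and its highest endothelial library, Trap 2, was the one with cortical and general epithelial markers at 53.3 and 41.8 FPKM. The part of those transcripts in Ccl21a was not tested. Nts (neurotensin) had 28.6 ± 13.8 FPKM, Gja4 (connexin 37) 19.9 ± 10.3 and Itga9 13.9 ± 4.05. None of the 12 was called under Trap, with a median of 0.13.

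Partners and relatives of the members counted 13 genes, of which 3 were higher in endothelium, 7 lower and 3 not called, with a median of -0.79. The number higher is near the 17.7% of all genes, while the 7 lower of 13 stand against 34.5%. Msn and Ezr encode moesin and ezrin, which tie podoplanin to actin, and had 498 ± 58.4 and 6.61 ± 3.66 FPKM in endothelium. Mmrn2, the endothelial relative of Mmrn1, had 53.8 ± 15.3 FPKM and exceeded the other populations by 4.46 ± 0.152 (SE). Has1, a hyaluronan synthase, had 9.90 ± 2.62 FPKM, while Cd44, the other main hyaluronan receptor, was lower in endothelium (-3.84 ± 0.099). Clec1b, which encodes the podoplanin receptor CLEC-2, was higher in endothelium by 2.23 ± 0.129. None of the 13 was called under Trap, with a median of 0.10 against -0.017 for all genes.

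Genes with the most similar profile over the 30 libraries differed between members, by Pearson r of log2(FPKM + 1), a description in which populations set most of the likeness. Prox1 was nearest to Pik3r3 (0.938), Adamts9 (0.913), Fgfr3 (0.901) and Sema3f (0.894). Lyve1 was nearest to Myo1c (0.849), Itga1 (0.845), Sik3 (0.844), Lmna (0.838) and Epas1 (0.837). Epas1 had 374 FPKM in endothelium and 233 in CD146+ mesenchyme, the same 2 populations that led for Lyve1. Mmrn1 was nearest to Gkn3 (0.938), Klhl4 (0.938), Adgrg3 (0.933), Nos3 (0.922) and Kcnj1 (0.919), each highest in endothelium. Pdpn was nearest to Igdcc4 (0.937), Adamts19 (0.935), Bmp7 (0.935), Naaladl2 (0.931) and Ifi205 (0.930), each under 1 FPKM in endothelium. Reln was nearest to Pcp4l1 (0.946), Scn3a (0.898), Abr (0.897), Rgs5 (0.887) and Cmtm4 (0.875). Rgs5, a pericyte gene, had 3781 FPKM in CD146+ mesenchyme, 539 in mTEC and 70.5 in endothelium, the same order as Reln.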

How the data were processed

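RNA sequencing measured 5 sorted thymic stromal populations in 30 libraries, 2 control and 4 Trap each. Per the labels' protocols, cDNA was amplified (Ovation RNA-Seq System V2) before library construction (KAPA LTP) and paired-end sequencing (HiSeq3000). The submitters' processing notes name bcl2fastq 2.17, STAR, DESeq2, GRCm38 and mm10. What each tool did, which annotation was used and how reads were counted is not given in the sources used here. FPKM values, rounded to 2 decimals, are what the authors deposited. An exact 0 means only that a gene is listed at 0. Low values were searched for steps of 1 read, but the best score of any library was 0.462, where 1 would mean whole reads, so depth is unknown and no counting interval is given.

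Of 18847 identifiers, 18836 were found in the gene name table, and 27 symbols turned into dates were restored. Genes at 1 FPKM or more in at least 2 libraries (16425) were transformed as log2(FPKM + 1) and fitted with limma 3.58.1 in R 4.3.3, with 10 group means, a trended empirical Bayes variance, two-sided tests and Benjamini-Hochberg adjustment at 0.05 over all genes. Endothelium against the rest weighted group means equally. Neighbouring populations were compared by exact permutation tests of 6 libraries against 6, whose smallest p is 0.00216, adjusted over 20 pairs. Correlations used exact permutations with scipy 1.17.1. The limma script was tested on simulated data. Named genes are the 5 members, list genes called under Trap in endothelium plus the 4 of highest endothelial mean per lymphatic list, and the 5 genes nearest to each member. One of the genes so named is not reported here. A few more were named after their values were seen (Stab2, the other genes lowest in control 2 and Trap 4, Cd44, Clec1b and the lower VEGF-C pathway genes). Members and lists were chosen with earlier results of these data known. Alternatives were other pseudocounts, no filter, TPM, upper quartile and quantile scaling, a weight per population, a replicate block, fits within a population and leaving out each library.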

Additional observations from a re-analysis of the deposited data

Results flagged for a closer look

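In 5 of 25 sets of 4 Trap libraries (5 members in 5 populations), 1 library stood apart from the other 3 by a gap that, as a share of the whole range, passed Dixon's 95% critical value. For normally distributed values chance sets apart about 1 in 20 such sets. FPKM values near 0 are skewed, so 5 of 25 cannot be read against that rate. Pdpn was 5.12 FPKM in endothelial Trap 1, against at most 0.03 in the other 3. Pdpn was 23.85 FPKM in mTEC Trap 2, against at most 15.91 in the other 3. Lyve1 was 1.81 FPKM in the same mTEC library, against at most 0.44. Mmrn1 was 0.93 FPKM in mTEC Trap 3, against at most 0.27. Lyve1 was 0.07 FPKM in cTEC Trap 1, against 0.02 in each of the other 3, a gap near the rounding of the table.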

How the results depend on the processing

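Depth is unknown, so the spread between libraries is the only measure of precision, and 2 controls per population limit every Trap comparison. Of the 5 members, none was called under Trap in any population by any alternative. The count of genes called in endothelium, 286, became 176 with quantile normalization, 13 with 1 weight per population and 0 in a fit of the 6 endothelial libraries alone, where 869 of 12187 genes had an unadjusted limma p under 0.05 (2452 over all 30 libraries) and Pdpn had no value because it failed the filter. In CD140a+ mesenchyme the count of 0 became 4 with a pseudocount of 5, 4 with no filter and 1 with weights. In CD146+ mesenchyme 3 became 9, 13, 5 (TPM), 6 and, alone, 0. In cTEC 1 became 2 with a pseudocount of 0.1, 2 with TPM, 8 with weights and 0 alone. In mTEC 57 became 9 with a pseudocount of 0.1, 171 with 5, 205 with no filter, 14 with TPM and 0 alone. The count for the endothelial change against the others, 46, became 110 with a pseudocount of 5, 24 with TPM, 28 with quantile normalization and 5 with weights. With the 4 Trap libraries only, 0 of 20 neighbouring pairs passed instead of 11, since 4 against 4 cannot go below 0.0286. The causes of the other changes were not tested. With a pseudocount of 0.1 the Pdpn difference under Trap in endothelium was -0.20 and its difference from the other populations' change -0.072. Reln in endothelium against the rest turned to 0.17 with a pseudocount of 0.1, 0.093 with TPM and 0.17 with quantile normalization. Prox1 under Trap in cTEC turned to -0.113 with a pseudocount of 0.1 and -0.033 with TPM, and Reln under Trap in mTEC to 0.062 with quantile normalization. With the replicate number as a replicate block, signs turned for Mmrn1 in CD140a+ mesenchyme (0.097), Prox1 (0.018) and Lyve1 (0.144) in CD146+ mesenchyme, Lyve1 (0.123) and Mmrn1 (0.104) in cTEC and Reln in mTEC (0.018), all under Trap. These are 14 member differences, and the other 281 kept direction and call. Leaving out 1 library gave 97 to 476 calls in endothelium (97 without control 1, 476 without control 2), 0 to 9 in CD140a+ and 2 to 19 in CD146+ mesenchyme, 1 to 6 in cTEC, 45 to 164 in mTEC, 31 to 232 for the endothelial change against the others, 7378 to 8669 for endothelium against the rest and 0 to 12 neighbouring pairs. With 1 control left, that library is assumed to vary like the other groups. Over all fits that left out 1 library, control or Trap, the member differences under Trap in endothelium ran from -0.03 to 1.16 (Prox1), -0.75 to 2.21 (Lyve1), -0.36 to 0.58 (Pdpn), 0.20 to 0.93 (Reln) and -1.22 to 1.62 (Mmrn1). Against the others' change they ran from 0.03 to 1.22, -0.45 to 2.51, -0.19 to 0.74, 0.22 to 0.95 and -1.25 to 1.59 in the same order. Under Trap in CD140a+ mesenchyme Prox1 ran from -0.036 to 0.142 and Mmrn1 from -0.035 to 0.007. In CD146+ mesenchyme Prox1 ran from -0.214 to 0.149, Lyve1 from -0.748 to 0.442, Pdpn from -0.254 to 0.998 and Mmrn1 from 0 to 0.014. In cTEC Prox1 ran from -0.093 to 0.101, Lyve1 from -0.366 to 0.017, Reln from -0.019 to 0.06 and Mmrn1 from -0.021 to 0.007. In mTEC Lyve1 ran from -1.138 to 0.262, Reln from -0.327 to 0.283 and Mmrn1 from -0.037 to 0.234. In endothelium against the rest, Lyve1 ran from 0.97 to 2.45 and Reln from -0.292 to 0.074. The r of Pdpn with Reln ran from -0.067 to 0.513. With the same replicate block, 270 genes were called in endothelium, 59 in mTEC, 39 for the endothelial change against the others and 8603 for endothelium against the rest. The block changed no member's call. Within a population, control and Trap libraries of the same number had deviations from group means that correlated at -0.275 to 0.081 over 10 pairs. The deviations of 2 controls mirror each other, so these are not 10 separate checks. Whether libraries of the same number in different populations share animals was not tested.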
